A study of Homo sapiens with 18 samples.

Results

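The transcriptomes of OVCAR3-KRAB clonal cells carrying sgXIST7 were compared with those of clonal cells carrying sgXIST9, both kept in normoxia. The comparison takes in every gene of the count table, and its members are the 6 normoxia libraries of these clones (3 replicates of each) out of 18 libraries in all. OVCAR3 is a cell line of high-grade serous ovarian carcinoma. OVCAR3-KRAB cells carry a lentiviral transgene for dCas9-KRAB, in which a KRAB repressor domain is joined to Cas9 that no longer cuts DNA, and all groups share it, the control included. In CRISPR interference, a single guide RNA (sgRNA) brings this repressor to a promoter. The guides sgXIST7 and sgXIST9 are aimed at different sequences of the XIST promoter, whereas sgCtl is aimed at Gal4, which is not a human gene. The study picked clonal cells for their loss of XIST, and the sources used here do not say whether the 3 replicates of a guide came from 1 clone or from several. The word clone below stands for the libraries of a guide. The guide, the amount of XIST left and any other property of the picked cells cannot be told apart, and p-values measure the spread between the libraries of a guide, which may be technical. The 3 sgCtl libraries in normoxia serve as a reference, and 6 libraries of the same clones kept for 24 h at 1% oxygen (hypoxia) show the same difference in other samples, which entered the normoxia test only through the shared estimate of the spread.

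XIST is a long noncoding RNA that coats the inactive X chromosome in female cells and starts its silencing by recruiting repressive complexes through SPEN, HNRNPK and other partners. JPX and FTX are noncoding RNAs of the same locus that favor its expression, and TSIX is transcribed across it on the opposite strand. In ovarian cancer cells, XIST has been studied for its ties to cancer stem cell (CSC) markers such as NES (nestin), CD24, CD44 and the aldehyde dehydrogenases.

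The total count of the 6 libraries ranged from 16151046 to 22686720. The sgXIST7 libraries were more spread than the sgXIST9 libraries, with a median SD per gene of 0.161 against 0.0867 on the log2 CPM scale (CPM, counts relative to the scaled library size). Replicate 2 of sgXIST7 stood apart from the other libraries of its clone. Its median distance from the clone's mean was 0.2226, whereas that of the others was 0.157 and 0.1208, and RN7SL1, the most abundant RNA, took 2.996% of its counts against 4.164% and 4.397%. Values that rest on this library are given with and without it. Of 12 markers of ovarian carcinoma epithelium, 5 were abundant enough to be tested. EPCAM had a mean of 195 CPM in sgXIST7 and 243 in sgXIST9, and KRT18 had 140 and 163, but MUC16 and WFDC2 were at 0 in all 6 libraries, and CDH1, KRT7 and WT1 were below 0.1 CPM in both clones. MUC16, WFDC2 and WT1 are usual markers of high-grade serous carcinoma, so these levels go against the labelled cell line. Its identity was not tested here, and the name is kept as the labels give it. The defining markers of leukocytes (PTPRC, CD3E) and of endothelial cells (PECAM1, CDH5) were at or near 0 in both clones. The only leukocyte marker above 1 CPM was CD68, with 29.2 CPM in sgXIST7 and 46.3 in sgXIST9. Other endothelial markers were present. The list of 10 summed to 23.2 to 30.6 CPM in sgXIST7, 25.4 to 33.6 in sgXIST9 and 15.5 to 19.3 in sgCtl. Of these, 2 were abundant enough to be tested, and edgeR called 0 (0 at an unadjusted p under 0.05, 0 called by DESeq2).

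A gene counted as called if its log2 fold change in edgeR's quasi-likelihood test exceeded 1 in size at an adjusted p below 0.01. Log2 fold changes are given as sgXIST7 minus sgXIST9 unless another contrast is named. Of 14938 genes tested, 508 (3.40%) were called. Among them 312 (2.09%) were higher in sgXIST7 and 196 (1.31%) were higher in sgXIST9. The median log2 fold change of all genes was 0.01, and 51.3% of genes were higher in sgXIST7. Without sgXIST7 replicate 2, the counts were 246 and 166, and 398 of the 508 calls remained. Leaving out each of the 6 libraries in turn, 326 of the 508 calls (64.2%) were kept every time. The libraries of the clones did not overlap at all for 6085 genes (40.7%). In these bulk samples, fewer cells that express a gene and less of its RNA per cell cannot be told apart.

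**Figure D1:**
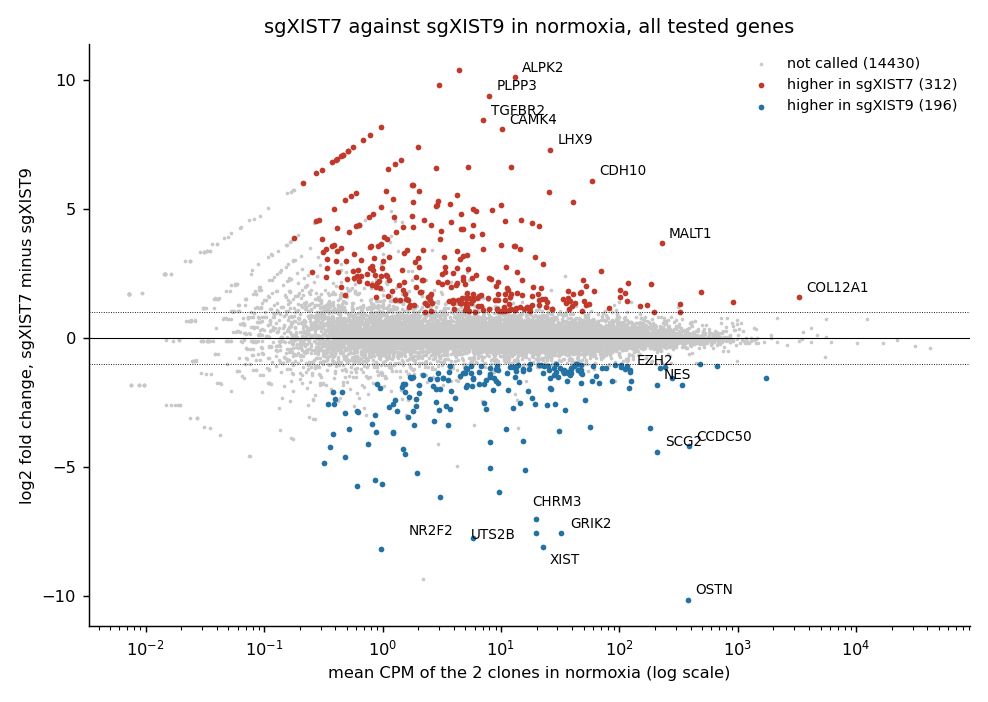
Each point is a tested gene in normoxia, with the mean CPM of the clones on a log scale (x axis) and the log2 fold change of sgXIST7 minus sgXIST9 (y axis). Dotted lines mark a log2 fold change of 1 and -1. The 312 genes in red were called higher in sgXIST7 and the 196 in blue higher in sgXIST9, and the widest differences on both sides pass 10 log2 units (ALPK2 and OSTN among them). Fitted values of genes with almost no counts in a clone depend on the prior count of the fit.

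XIST was the targeted gene and differed widely between the KD clones. Its counts were 5, 4 and 1 in the sgXIST7 libraries, 650, 1009 and 898 in the sgXIST9 libraries, and 4900, 11209 and 4213 in the sgCtl libraries. On the CPM scale this was 0.161 ± 0.101 in sgXIST7, 45.0 ± 13.9 in sgXIST9 and 479 ± 338 in sgCtl (mean ± SD, n = 3). The sgXIST7 clone thus held 0.0335% of the sgCtl level, and the sgXIST9 clone held 9.39%. Replicate 2 of sgCtl was far above the others (867 CPM against 329 and 242), and without it the shares were 0.0563% and 15.8%. The log2 fold change between the clones was -8.11 (SE 0.71, adjusted p = 5.8e-07), and it lay between -8.44 and -7.64 when each library was left out. An exact two-sided permutation test of the XIST level gave p = 0.1, the smallest it allows. In hypoxia, XIST had 0 to 3 counts in sgXIST7 and 357 to 510 in sgXIST9.

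The region aimed at by both guides is shown here as the RefSeq promoter window of XIST, 250 bases before to 50 bases after its start (GRCh38.p14, chrX:73852665-73852964, minus strand). Capitals mark CG dinucleotides, the sites of DNA methylation, of which there are 6. Of 18292 such windows of genes in the table, 97.6% hold at least 1 CG, the median is 20 and 26.7% hold as few as XIST.
XIST promoter: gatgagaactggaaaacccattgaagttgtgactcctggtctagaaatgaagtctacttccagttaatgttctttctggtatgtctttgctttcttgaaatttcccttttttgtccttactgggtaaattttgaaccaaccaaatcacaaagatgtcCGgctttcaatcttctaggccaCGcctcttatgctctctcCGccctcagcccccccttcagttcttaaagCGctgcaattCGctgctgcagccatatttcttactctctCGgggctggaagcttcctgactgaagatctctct

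Of the other genes of the locus, JPX (chrX:73944324-74070382) was lower in sgXIST7. It had 5.14, 3.39 and 4.49 CPM in sgXIST7, 13.1, 14.8 and 13.6 in sgXIST9, and 12.3, 10.2 and 11.9 in sgCtl. The log2 fold change between the clones was -1.67 (SE 0.25, adjusted p = 0.00019), so that JPX fell below sgCtl in the clone with almost no XIST and stayed at its level in the other (log2 fold change 0.27, adjusted p = 0.48). FTX had a log2 fold change of 0.56 (adjusted p = 0.1) and was not called. TSIX was too low to be tested. JPX overlaps FTX in part, and XIST overlaps TSIX, each on opposite strands. Without a known strand setting of the counting, reads of these pairs may not be told apart. Of 18 tested genes of the X inactivation center and its cofactors, the called ones were XIST and JPX, and the median log2 fold change was -0.02. SPEN (0.70, adjusted p = 0.3) and HNRNPK (-0.09, adjusted p = 0.71) were not called.

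Of 490 X-linked genes tested, 16 (3.27%) were called between the clones, beside 3.40% of all genes. The calls were 8 in each direction, and the median log2 fold change of X-linked genes was -0.004. Besides XIST and JPX, the genes higher in sgXIST9 were MAGED1, STARD8, NBDY, RPS4X, PCSK1N and NAA10, and those higher in sgXIST7 were FHL1, HS6ST2, AP1S2, NUDT10, GPM6B, NHS, ARMCX6 and ARMCX3. The calls of FHL1, NUDT10 and ARMCX6 were lost in 5, 4 and 6 of the 6 leave-one-out fits (adjusted p up to 0.026, 0.028 and 0.033, each without an sgXIST9 library). MAGED1, a member of the MAGE family, had 9.39 ± 3.13 CPM in sgXIST7, 103 ± 3.54 in sgXIST9 and 123 ± 4.06 in sgCtl (log2 fold change -3.46, adjusted p = 2.4e-08). RPS4X, a ribosomal protein gene known to escape X inactivation, had 460, 382 and 466 CPM in sgXIST7 and 932, 895 and 912 in sgXIST9 (log2 fold change -1.07, adjusted p = 1.3e-05). Without sgXIST7 replicate 2 its log2 fold change was -0.98, just short of the limit of 1. Since ribosomal protein genes have many processed copies, this value may depend on how reads of copies were assigned. NAA10, a subunit of the N-terminal acetyltransferase, was 1.19 log2 units lower in sgXIST7 than in sgXIST9 (adjusted p = 6.3e-07). Against sgCtl its log2 fold change was -0.561 in sgXIST7 and 0.629 in sgXIST9. HS6ST2, a heparan sulfate sulfotransferase, was higher in sgXIST7 (1.72, adjusted p = 1.9e-06). Of 24 tested genes known to escape X inactivation, RPS4X and GPM6B were called (8.33%), in opposite directions. The call of GPM6B (1.92, adjusted p = 0.0025) was lost without sgXIST7 replicate 1 or 2 or without sgXIST9 replicate 1 or 3 (adjusted p from 0.011 to 0.02).

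Of the CSC markers that the study turns on, NES was called between the clones. NES, an intermediate filament protein of neural stem cells, had 95.4, 92.0 and 88.1 CPM in sgXIST7, 315, 318 and 333 in sgXIST9, and 18, 11.6 and 7 in sgCtl. It was thus above sgCtl in both clones, and 1.81 log2 units lower in sgXIST7 than in sgXIST9 (SE 0.27, adjusted p = 0.00022). ALDH1A1, the abundant aldehyde dehydrogenase of these cells, had 4950, 4280 and 4880 CPM in sgXIST7 and 3810, 3480 and 3630 in sgXIST9. These libraries did not overlap, but the log2 fold change of 0.37 was not called (adjusted p = 0.19). CD24 and ALDH1A3 were below 0.4 CPM in every library of both clones, and neither was called (adjusted p = 0.97 and 0.88). CD44 had no counts in the 6 libraries.
Of 14 tested stem cell and CSC markers, 4 were called (28.6%, beside 3.40% of all genes). They were NES, NT5E, BMI1 and LIN28B, all higher in sgXIST9. NT5E (CD73, an ectonucleotidase) had a log2 fold change of -1.87 (adjusted p = 0.00047). BMI1, a Polycomb subunit (-1.30, adjusted p = 0.0076), and LIN28B, which blocks let-7 maturation (-1.04, adjusted p = 0.0072), were near the threshold, and their calls were lost whichever of the 6 libraries was left out (adjusted p from 0.012 to 0.047). The list's median was 0.07, and it was -0.07 without sgXIST7 replicate 2 and -0.26 in hypoxia, where 2 of the 4 calls recurred.

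Most genes with the widest difference were near 0 in a clone and well above it in the other. The 12 that were higher in sgXIST7 were ALPK2, PLPP3, TGFBR2, CAMK4, LHX9, NREP, LOXL1, CDH10, ZNF518B, NRP2, MDGA1 and TEKT4P2. ALPK2, an alpha-kinase, had 22.6, 28.6 and 27.1 CPM in sgXIST7, against a total of 1 count in sgXIST9 and none in sgCtl. LHX9, a LIM homeobox factor of the developing gonad, had 52.0, 51.1 and 52.6 CPM in sgXIST7, and between 0.268 and 0.409 in sgXIST9 (log2 fold change 7.28, SE 0.33, adjusted p = 1.2e-10). CDH10, a type II cadherin, had 127, 101 and 117 CPM in sgXIST7 and 1.16, 2.07 and 1.93 in sgXIST9 (6.08, adjusted p = 2.9e-10).
In sgCtl, LHX9, LOXL1 (a collagen and elastin cross-linking oxidase), CDH10, NRP2 (a semaphorin and VEGF co-receptor) and MDGA1 were below 2 CPM in every library. NREP and ZNF518B instead had their high level in sgCtl as well. ZNF518B had 52.3, 45.0 and 53.9 CPM in sgXIST7, 67.4, 64.1 and 77.1 in sgCtl, and 0.803, 0.690 and 1.58 in sgXIST9 (5.64, adjusted p = 1.1e-10). CAMK4, a calcium-dependent kinase, was also high in both sgXIST7 and sgCtl, with 19.4 to 21.1 CPM in sgXIST7, 13.4 to 15.8 in sgCtl and at most 0.175 in sgXIST9. PLPP3, a lipid phosphatase, varied most among the sgXIST7 libraries (9.46, 11.2 and 27 CPM). TEKT4P2 is a pseudogene, and its counts may include reads of related copies.

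The 12 genes that were higher in sgXIST9 were OSTN, XIST, NR2F2, GRIK2, UTS2B, CHRM3, METTL7A, TRIM55, SCG2, CCDC50, DUSP6 and BST2. OSTN, which encodes the secreted peptide osteocrin, had 784, 742 and 744 CPM in sgXIST9, 0.519, 0.722 and 0.784 in sgXIST7, and at most 0.232 in sgCtl (log2 fold change -10.12, SE 0.29, adjusted p = 3.9e-13). GRIK2, a kainate receptor subunit, had 60.5, 65.0 and 65.6 CPM in sgXIST9 and at most 0.611 in the other clone (-7.56, adjusted p = 2.9e-10). CHRM3, a muscarinic acetylcholine receptor, had 40.8, 38.8 and 37.4 CPM in sgXIST9, between 0.216 and 0.392 in sgXIST7, and between 1.31 and 1.41 in sgCtl (-7.01, adjusted p = 2.9e-10).
SCG2, a secretogranin of dense-core vesicles, was at 403, 404 and 394 CPM in sgXIST9 and at 21.8, 22.4 and 12.8 in sgXIST7 (-4.40, adjusted p = 2.9e-10). NR2F2 (COUP-TFII), an orphan nuclear receptor, was at the sgCtl level in sgXIST9 and missing from sgXIST7. It had 11.2, 12.2 and 11.4 CPM in sgXIST9, 10.9, 13.9 and 10.4 in sgCtl, and a total of 3 counts in sgXIST7. DUSP6, a phosphatase that acts on ERK, had 15.1, 13.1 and 17.6 CPM in sgXIST9, 33.4, 23 and 30.5 in sgCtl, and 1.17, 0.666 and 0.914 in sgXIST7 (-4.03, adjusted p = 3e-09). BST2 (tetherin), an interferon-induced restriction factor, was below sgCtl in both clones. Relative to the control it stood at -6.12 in sgXIST7 and at -2.14 in sgXIST9 on the log2 scale, and the clones differed by -3.98 (adjusted p = 9.9e-09).

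**Figure D2:**
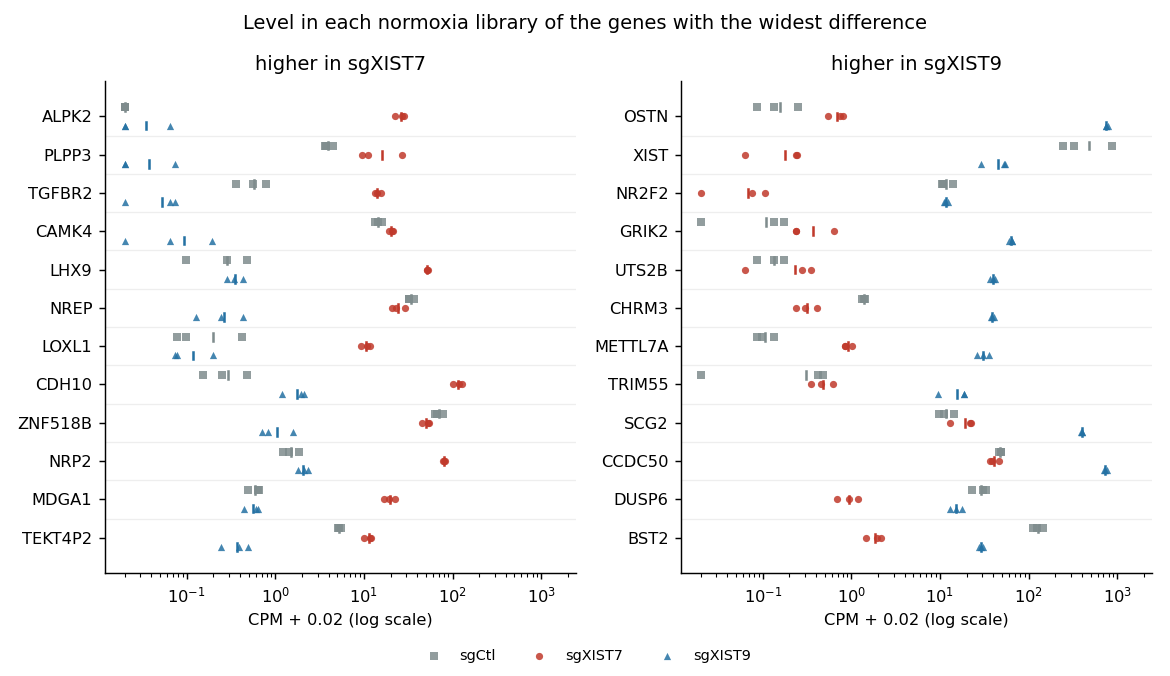
Level of the 12 genes with the widest difference on each side in the 9 normoxia libraries, as CPM plus 0.02 on a log axis. Points are libraries and short bars are the means of 3 libraries. sgCtl lies beside sgXIST9 for LHX9, LOXL1, NRP2, MDGA1 and NR2F2, and beside sgXIST7 for NREP, ZNF518B and CCDC50.

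A gene was taken as detected in 1 clone only by its counts in every library. Each library of that clone had at least 30 counts, and each library of the other clone had 3 or fewer. There were 17 such genes in sgXIST7 and 5 in sgXIST9, and these counts depend on the limits chosen, as given at the end. Of the 17 genes of sgXIST7, 14 had more than 3 counts in every sgCtl library, a lower bar than 30 counts. TGFBR2, for example, had only 6 to 10 counts in sgCtl. ALPK2 and RGS22, a regulator of G protein signaling, were at or under the limit in sgCtl, and ELF3 was above it in some sgCtl libraries and not in others. The ratio of ALPK2 counts per library depth was 1510, with a 95% exact interval from 271 to 59700 that covers counting error only. That of TGFBR2, the type II TGF-beta receptor, was 412 (114 to 3400), and that of RUNX1, a transcription factor of blood stem cells and epithelia, was 106 (35.8 to 515). DLGAP1-AS3 and PDZRN3, an E3 ubiquitin ligase, had 0 counts in sgXIST9 and were at least 57.1-fold and 38.4-fold higher in sgXIST7, against a floor of 3 counts per library. GABRA5, a GABA receptor subunit, PRKAA2, a catalytic subunit of AMPK, and ZEB2 were also among them, and all of these 3 had more counts in sgCtl than in sgXIST7. For PRKAA2, sgCtl had 1109 to 1326 counts, sgXIST7 had 36 to 127 and sgXIST9 had at most 2.
The 5 genes of sgXIST9 were NR2F2, CRH, STARD8, CYP4X1 and OPRM1. NR2F2 and STARD8, an X-linked gene, had more than 3 counts in every sgCtl library. CRH (corticotropin-releasing hormone), OPRM1 (the mu opioid receptor) and CYP4X1 had 3 or fewer in each. CRH had 80 to 164 counts in sgXIST9 and at most 2 in sgXIST7, a ratio of 75.1 (31.9 to 233). All 22 genes were called in hypoxia in the same direction, a contrast with a background of 4.46% of all genes. The limit of 3 counts in every library of the other clone held in hypoxia for 5 of the 17 genes of sgXIST7 and for the 5 genes of sgXIST9. PRKAA2, for example, had 90 to 140 counts in sgXIST9 in hypoxia and 457 to 801 in sgXIST7.

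The position of sgCtl was used to describe on which clone a difference fell. Against sgCtl in normoxia, 7.76% of all genes were called in sgXIST7 and 7.70% in sgXIST9. Both contrasts share the sgCtl libraries with each other and the clone libraries with the comparison between clones, so the numbers are a description. Of the 312 genes higher in sgXIST7, 94 were called above sgCtl in sgXIST7 alone and 98 were called below sgCtl in sgXIST9 alone. In 19 both clones were above sgCtl, in 38 both were below, and in 53 neither was called. Of the 196 genes higher in sgXIST9, 66 were above sgCtl in sgXIST9 alone, 62 were below it in sgXIST7 alone, 28 were above and 8 below in both, and 30 were called in neither.
In 12 genes the clones were called on opposite sides of sgCtl. The 10 that were up-regulated in sgXIST7 and down-regulated in sgXIST9 were TGFBR2, COL5A1, WNT9A, DLGAP1-AS3, RUNX1, PRUNE2, PLA2G3, CDK14, ST6GALNAC5 and S100A10. CHRM3 and HOXB8 went the other way. TGFBR2 had 13.9, 15.4 and 13.3 CPM in sgXIST7, 0.536, 0.773 and 0.344 in sgCtl, and a total of 2 counts in sgXIST9. S100A10, a partner of annexin A2, had 47.3, 34.9 and 23 CPM in sgXIST7, 11.5 to 13.9 in sgCtl, and 1.49 to 1.70 in sgXIST9. WNT9A, a Wnt ligand, was 1.72 above sgCtl in sgXIST7 (adjusted p = 1.7e-05) and 1.01 below it in sgXIST9 (adjusted p = 0.0065). Without sgCtl replicate 2, 7 genes were called on opposite sides.

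**Figure D3:**
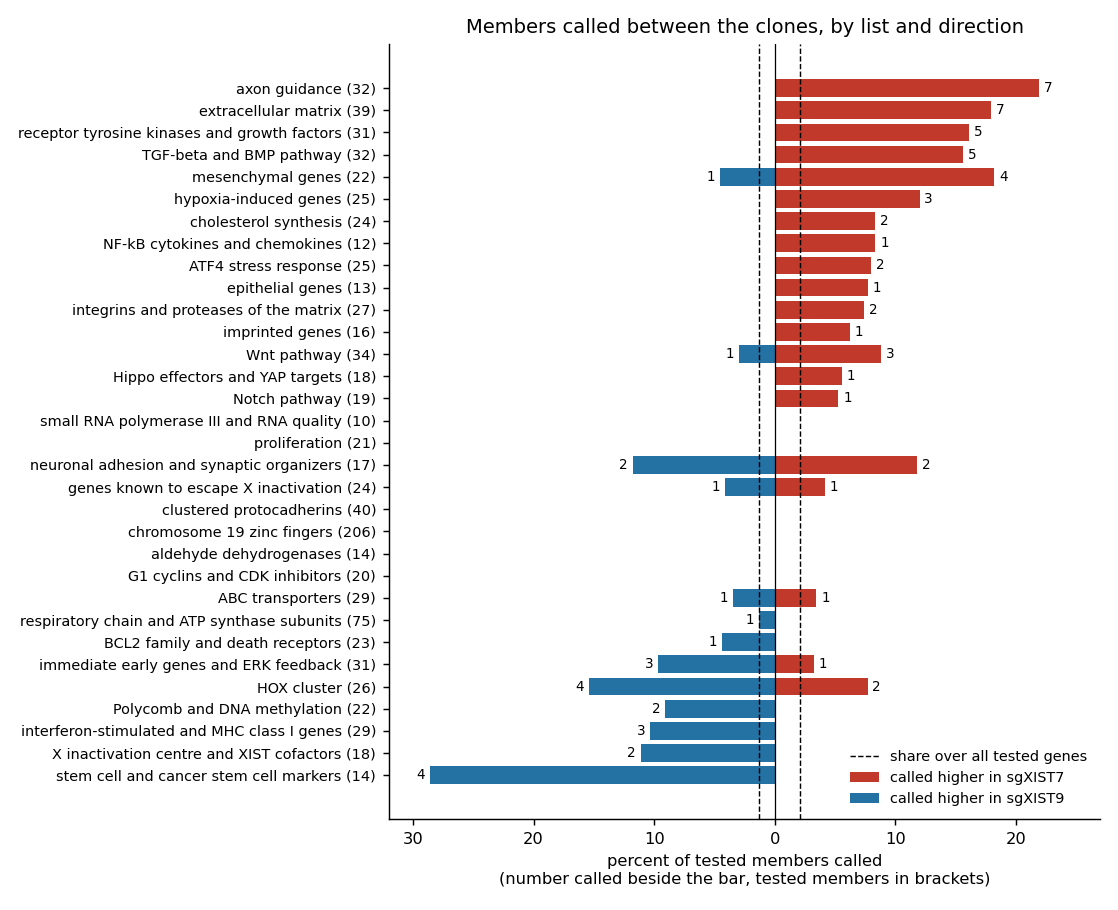
Percent of the tested members of each list that were called between the clones in normoxia, for lists with at least 10 tested members, higher in sgXIST7 to the right and higher in sgXIST9 to the left. Dashed lines mark the shares over all tested genes (2.09% and 1.31%). All 7 called genes of axon guidance and all 7 of extracellular matrix were higher in sgXIST7, whereas the 4 called stem cell markers were higher in sgXIST9.

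All called genes of the extracellular matrix were higher in sgXIST7. Of 39 tested, 7 were called (17.9%, beside 3.40% of all genes). Of the 39, 31 had a positive log2 fold change, and the median was 0.76. Without sgXIST7 replicate 2, the median was 0.49, with 6 called higher in sgXIST7 and 1 in sgXIST9. In hypoxia the median was 0.11, and 3 of the 7 calls recurred. The summed level of the list was 10500 to 12400 CPM in the sgXIST7 libraries, 5090 to 5430 in sgXIST9 and 5430 to 5750 in sgCtl. A large part of the sum in the clones is COL12A1, with means of 4940 CPM in sgXIST7, 1650 in sgXIST9 and 18.2 in sgCtl. The sums thus do not show where the other genes lay relative to sgCtl. COL12A1, a fibril-associated collagen, was the most abundant, with 4830, 5580 and 4420 CPM in sgXIST7, 1740, 1680 and 1550 in sgXIST9, and 16.7, 17.2 and 20.6 in sgCtl (log2 fold change between the clones 1.58, SE 0.23, adjusted p = 0.00016). FBN2 (fibrillin 2) had 20.7, 29.8 and 34.3 CPM in sgXIST7, close to the 30.9, 37.9 and 33.4 of sgCtl, and at most 1.59 in sgXIST9 (4.57, adjusted p = 7.8e-07). COL5A1 was higher by 3.58 (adjusted p = 2.5e-08), and COL6A2, a chain of collagen VI, by 1.32 (adjusted p = 0.00019).
COL6A3 (1.4, adjusted p = 0.005), LAMB3 (2.47, adjusted p = 0.004) and MATN2 (2.28, adjusted p = 0.0036) were called with all libraries, but each call was lost in leave-one-out fits. COL6A3 was lost without sgXIST7 replicate 2 or 3 or any sgXIST9 library (adjusted p from 0.014 to 0.03), LAMB3 without sgXIST7 replicate 1 or any sgXIST9 library (0.013 to 0.029), and MATN2 without sgXIST7 replicate 3 or any sgXIST9 library (0.012 to 0.028).
The list of 10 fibroblast markers, which shares collagens with this list, summed to 1130 to 1200 CPM in sgXIST7, 654 to 716 in sgXIST9 and 944 to 987 in sgCtl. By edgeR 0 of its 6 tested members were called (2 at an unadjusted p under 0.05, 0 called by DESeq2), and the fibroblast markers LUM, PDGFRA and FAP were below 0.1 CPM in both clones. Of 27 integrins and matrix proteases, 2 were called (7.41%, beside 3.40% of all genes), both higher in sgXIST7. They were ITGA1 and ITGA2, collagen-binding integrin subunits on chromosome 5. ITGA2 had 41.3, 38.8 and 39.2 CPM in sgXIST7, 46.1 to 47.2 in sgCtl, and 1.83, 1.49 and 2.57 in sgXIST9 (4.35, adjusted p = 7.2e-09).

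The called axon guidance genes were higher in sgXIST7 too. Of 32 tested, 7 were called (21.9%, beside 3.40% of all genes), and 26 of 32 were above 0. The median log2 fold change was 0.65 (0.53 without sgXIST7 replicate 2, with 5 called). NRP2 had 80.1, 81.7 and 77.5 CPM in sgXIST7, 1.78, 2.07 and 2.33 in sgXIST9, and 1.20 to 1.81 in sgCtl (5.28, SE 0.36, adjusted p = 2.4e-08). SEMA3F, a secreted ligand of NRP2, had 32.3, 29.5 and 27.9 CPM in sgXIST7 and 8.34, 7.38 and 7.30 in sgXIST9 (1.96, SE 0.15, adjusted p = 6.1e-08). The receptor ROBO2 had 0.722 to 1.13 CPM in sgXIST7 and 0 counts in sgXIST9 (adjusted p = 0.0012). The ephrin receptor EPHA7 was abundant, with 233, 178 and 226 CPM against 97.5, 79.7 and 91.2 (1.25, adjusted p = 0.00048).
The ephrin receptor EPHB1 (2.71, adjusted p = 0.0041), the ephrin EFNA5 (1.52, adjusted p = 0.0032) and NRP1 (2.04, adjusted p = 0.0051) did not keep their calls. EPHB1 was lost when any library other than sgXIST7 replicate 1 was left out (adjusted p up to 0.027), EFNA5 without any other than sgXIST7 replicate 3 (up to 0.026), and NRP1 without sgXIST7 replicate 1 or any sgXIST9 library (up to 0.039). In hypoxia the list's median was 0.13, and 1 of the 7 calls recurred.

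Of 32 tested genes of the TGF-beta and BMP pathway, 5 were called (15.6%, beside 3.40% of all genes), all higher in sgXIST7. They were TGFBR2, the BMP antagonist NOG, the ligand BMP7, FSTL1 and the latency protein LTBP1. NOG had 4.84, 1.83 and 4.01 CPM in sgXIST7 and 0.265 to 0.525 in sgXIST9 (3.10, adjusted p = 0.00033), and FSTL1 had 41.8, 30.6 and 34.0 against 14.5, 12.5 and 13.4 (1.4, adjusted p = 5.5e-05). In sgCtl, BMP7 had 18.4 to 23.6 CPM, well above both clones. The call of BMP7 (1.69, adjusted p = 0.0018) was lost without sgXIST9 replicate 1 or 2 (adjusted p = 0.013 and 0.015), and that of LTBP1 (1.04, adjusted p = 0.0035) when any library other than sgXIST7 replicate 3 was left out (up to 0.028). The list's median was 0.35 in normoxia and 0.03 in hypoxia, where 1 of the 5 calls recurred.
Of 31 receptor tyrosine kinases and growth factors, 5 were called (16.1%, beside 3.40% of all genes), all higher in sgXIST7. In hypoxia, 1 of these calls recurred. The list's median was 0.11 in normoxia and -0.07 in hypoxia. IGFBP2, a binding protein of insulin-like growth factors, had 28.1, 27.1 and 25.1 CPM in sgXIST7, 2.36, 2.76 and 2.22 in sgXIST9, and 40.2 to 53.2 in sgCtl (3.45, SE 0.17, adjusted p = 3.3e-10). FGFR2 had 19.6, 17.5 and 16.3 CPM against 5.26, 6.21 and 6.13 (1.60, adjusted p = 0.0015), and its call was lost without sgXIST9 replicate 1 (adjusted p = 0.013). The calls of VEGFC, KITLG and IGFBP3 were each lost in 3 or more leave-one-out fits (adjusted p up to 0.025, 0.019 and 0.046), and all of them were lost without sgXIST7 replicate 3 and without sgXIST9 replicate 2. IGFBP3 varied from 24.6 to 86.9 CPM among the sgXIST7 libraries.
In the Wnt pathway, 3 of 34 genes were called higher in sgXIST7 and 1 higher in sgXIST9 (11.8% together, beside 3.40% of all genes). The Wnt antagonist SFRP1 had 5.75, 6.16 and 5.75 CPM in sgXIST7, 13.8 to 17.3 in sgCtl, and 0.357, 0.850 and 0.817 in sgXIST9 (3.14, adjusted p = 2.3e-06). The receptor FZD1 was at the sgCtl level in sgXIST7 and lower in sgXIST9 (1.47, adjusted p = 8.7e-06). RNF43, a ubiquitin ligase that removes Wnt receptors, was higher in sgXIST9 (-1.55, adjusted p = 0.0096), a call that was lost whichever library was left out (adjusted p from 0.011 to 0.06).

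Of 22 tested mesenchymal genes, 5 were called (22.7%, beside 3.40% of all genes), 4 higher in sgXIST7 and NES higher in sgXIST9. The list's median was 0.46 (0.33 without sgXIST7 replicate 2). The transcription factors ZEB2, TWIST1 and PRRX1 were low in both clones. ZEB2 had 2.03, 3 and 2.18 CPM in sgXIST7, 0.0584 to 0.106 in sgXIST9 and 26.5 to 32.9 in sgCtl. TWIST1 had 0.303, 0.5 and 1.05 CPM in sgXIST7 and at most 0.0892 in sgXIST9, against 3.22 to 4.53 in sgCtl (adjusted p = 0.0011). ZEB2 and TWIST1 were thus below sgCtl in each clone, and further below it in sgXIST9. PRRX1 had 0.821, 0.833 and 1.05 CPM in sgXIST7, 0 counts in sgXIST9 and 0.0773 to 0.335 CPM in sgCtl. The log2 fold change between the clones was 7.06 (adjusted p = 0.00012). Unlike the other factors, PRRX1 was called above sgCtl in sgXIST7 (2.31, adjusted p = 0.0066). In sgXIST9 it was not called against sgCtl (-4.75, adjusted p = 0.013). VIM, the abundant intermediate filament of these cells, had a mean of 5610 CPM in sgXIST7 and 5420 in sgXIST9 (log2 fold change 0.05, adjusted p = 0.91). TAGLN (transgelin) had 228, 123 and 228 CPM in sgXIST7 and 38.8, 53.8 and 38.9 in sgXIST9 (2.14, adjusted p = 0.0027), a call that was lost without sgXIST7 replicate 1 or 3 or sgXIST9 replicate 1 or 3 (adjusted p from 0.012 to 0.021). Of 13 epithelial genes, ELF3 alone was called (7.69%, beside 3.40% of all genes). Its call (3.83, adjusted p = 0.0025) was lost without sgXIST7 replicate 2 or any sgXIST9 library (adjusted p from 0.011 to 0.022).

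Of 26 tested HOX genes, 6 were called (23.1%, beside 3.40% of all genes). Of these, 2 were higher in sgXIST7, HOXD1 and HOXD11, and 4 were higher in sgXIST9, the neighbors HOXB5, HOXB6, HOXB7 and HOXB8. Other members of these clusters were not called, among them HOXB2 (-0.01), HOXB9 (-0.39) and HOXD13 (0.13). HOXB7 had 21.3, 22.6 and 21.7 CPM in sgXIST9, 17.2 to 22.7 in sgCtl, and 6.96, 6.22 and 6.66 in sgXIST7 (-1.72, SE 0.28, adjusted p = 0.00042). HOXB6 had 13.3, 15.1 and 14.8 CPM in sgXIST9 and 3.37, 4.22 and 5.36 in sgXIST7 (-1.74, adjusted p = 0.00042). HOXB8 had a log2 fold change of -2.81 (adjusted p = 2.7e-05). The call of HOXB5 (-2.41, adjusted p = 0.0012) was lost without sgXIST7 replicate 1 or 3 (adjusted p = 0.01 and 0.012). HOXD1 had 1.25, 2.28 and 2.61 CPM in sgXIST7 and 0.134 to 0.372 in sgXIST9 (3.15, adjusted p = 0.00042). HOXD11 had 0.648 to 1.11 CPM in sgXIST7 and 0 counts in sgXIST9 and in sgCtl. All 6 were called in hypoxia in the same direction. Of 40 clustered protocadherins, edgeR called 0 (8 at an unadjusted p under 0.05, 0 called by DESeq2), and of 206 zinc fingers of chromosome 19 it called 0 (33 at an unadjusted p under 0.05, 3 called by DESeq2).

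Of 75 subunits of the respiratory chain and ATP synthase, 1 was called (1.33%, beside 3.40% of all genes). Among them 70 were lower in sgXIST7 and 5 were higher, with a median of -0.25, while the median of all genes was 0.01. Without sgXIST7 replicate 2, the median was -0.14, with 63 of 75 lower. NDUFB2, a subunit of complex I that lies in the chromosome 7 stretch described below, was the called gene (28.1, 21.9 and 29.1 CPM in sgXIST7 against 54.7, 54.8 and 58.5, log2 fold change -1.09, adjusted p = 1.5e-05), and without sgXIST7 replicate 2 its log2 fold change was -0.97.
Of 24 cholesterol synthesis genes, 2 were called (8.33%) and 21 were higher in sgXIST7, with a median of 0.45 (0.46 without sgXIST7 replicate 2). STARD4, a sterol carrier, had 69.8, 57.7 and 54.5 CPM in sgXIST7 and 25.6, 20.7 and 25 in sgXIST9 (1.35, adjusted p = 0.00032). The call of LSS (lanosterol synthase, 1.03, adjusted p = 0.004) was lost in 4 of the 6 leave-one-out fits (without sgXIST7 replicate 1 or any sgXIST9 library, adjusted p from 0.016 to 0.029). MVD, a decarboxylase of the pathway, had a log2 fold change of 0.91 (adjusted p = 0.0014), short of the limit of 1. In hypoxia the list's median was -0.04, and 0 of the 2 calls recurred.
Of 25 hypoxia-induced genes, 23 had a positive log2 fold change in normoxia (median 0.37, or 0.16 with 17 of 25 positive without sgXIST7 replicate 2). NDRG1, DDIT4 and BHLHE40 were called higher in sgXIST7 (3 of 25, beside 3.40% of all genes), and none of these calls recurred in hypoxia. BHLHE40 had 18.2, 19.8 and 12 CPM in sgXIST7 and 7.27, 6.64 and 8.75 in sgXIST9 (1.14, adjusted p = 0.00011). DDIT4, an inhibitor of mTORC1, was highest in sgXIST7 replicate 2 (40.6, 80.3 and 48.5 CPM against 19.9 to 21.9). VEGFA, CA9 and PGK1 were not called (log2 fold changes from 0.06 to 0.17).

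Of 31 immediate early genes and feedback inhibitors of ERK, 4 were called (12.9%, beside 3.40% of all genes). FOSL2 was higher in sgXIST7 and the other 3 in sgXIST9, and the list's median was -0.46. DUSP5, a nuclear ERK phosphatase, had 8.08, 7.55 and 7.62 CPM in sgXIST7 and 17.0, 19.3 and 20.4 in sgXIST9 (-1.29, adjusted p = 0.00049). PHLDA1 had 177, 153 and 117 CPM in sgXIST7, 517, 559 and 517 in sgXIST9, and 2.52 to 9.05 in sgCtl (-1.83, adjusted p = 0.0019), and its call was lost without sgXIST7 replicate 2 or 3 (adjusted p = 0.01 and 0.016). FOSL2, an AP-1 subunit, had 133, 119 and 110 CPM in sgXIST7 and 18.1, 21.2 and 21.2 in sgXIST9 (2.58, adjusted p = 2.3e-07). FOSL1, of the same family, was at -1 (adjusted p = 0.0094) and was not called. In hypoxia the list's median was 0.41.
Of 29 interferon-stimulated and MHC class I genes, 3 were called (10.3%, beside 3.40% of all genes). These were BST2, IFI44 and IFITM1, all higher in sgXIST9. The calls of IFI44 (-1.83, adjusted p = 0.0063) and IFITM1 (-1.58, adjusted p = 0.0035) were not stable. IFI44 was lost whichever library was left out (adjusted p from 0.011 to 0.048), and IFITM1 without sgXIST7 replicate 1 or 3 or sgXIST9 replicate 2 or 3 (0.013 to 0.027). BCL2, the antiapoptotic protein, was higher in sgXIST9 (1.03, 1.33 and 2.10 CPM against 0.173, 0.0555 and 0.174, log2 fold change -3.34, adjusted p = 6.2e-05). Of 21 proliferation genes edgeR called 0 (0 at an unadjusted p under 0.05, 0 called by DESeq2), and of 20 G1 cyclins and CDK inhibitors it called 0 (4 at an unadjusted p under 0.05, 1 called by DESeq2).

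A stretch of chromosome 7 was lower in sgXIST7 as a whole. Genes were ordered along each chromosome, the running median of their log2 fold changes was taken over 41 genes, and runs were kept where it passed 0.35 in size. The longest run spanned 138 tested genes, from PRRT4 to ACTR3B (chr7:128350325-152855379, hg38), a length of 24.51 Mb. Its median log2 fold change was -0.93, with 126 of 138 genes lower in sgXIST7. Of these genes, all 42 that were called (30.4%) were higher in sgXIST9, beside 1.31% of all genes, and the libraries of 111 genes lay apart with sgXIST7 below, beside 20.4% of all genes. The run was chosen by these same fold changes, so the shares are a description. The 563 tested genes before the run had a median of 0.03, and the 20 after it, up to the last tested gene of the chromosome, had -0.87. Those 20 have no full window of 41 genes around them, so the run could not reach them. Its end at ACTR3B and its length are thus set by the window. The shift was present in each sgXIST7 library. Relative to the sgCtl mean, the median of the run was -0.79, -0.70 and -0.80 in the sgXIST7 libraries, and 0.01, 0.07 and 0.01 in the sgXIST9 libraries. The run took 0.262% to 0.297% of the counts in sgXIST7, 0.494% to 0.513% in sgXIST9, and 0.497% to 0.540% in sgCtl. The sgXIST7 libraries were thus below both other groups, which lay together. In hypoxia the run's median was -1.12. DNA copy number was not measured, and its part in the shift was not tested.
Genes of many functions were lower together. EZH2, the methyltransferase of Polycomb repressive complex 2, had 76.2, 70.2 and 73.1 CPM in sgXIST7, 158, 182 and 178 in sgXIST9, and 207 to 231 in sgCtl (-1.24, SE 0.19, adjusted p = 0.0003). XRCC2, a DNA repair protein of homologous recombination, had 29.7, 22.4 and 28.0 CPM against 66.7, 69.2 and 70.9 (-1.37, adjusted p = 2.2e-05). ABCF2 (-1.34, adjusted p = 4.3e-06), NUP205, a scaffold protein of the nuclear pore (-1.18, adjusted p = 4.3e-08), CUL1, the scaffold of SCF ubiquitin ligases (-1.03, adjusted p = 4e-07), and TNPO3, a nuclear importer of SR proteins (-1.10, adjusted p = 2.6e-07), fell in the same range. CHCHD3, a subunit of the mitochondrial cristae complex, differed more between the clones (6.97 CPM against 41.9, log2 fold change -2.59, adjusted p = 8.6e-10). NOS3, the endothelial nitric oxide synthase, was at -1.37 (adjusted p = 0.00092). A few genes of the run had positive values, among them CALD1 (0.57, adjusted p = 0.12) and PODXL (0.74, adjusted p = 0.28). Without the genes from PRRT4 to the end of the chromosome, 151 genes were called higher in sgXIST9, and this count was made after the data were examined.

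A shorter run lay on chromosome 13, from N4BP2L1 to ZC3H13 (chr13:32400723-46052746, 53 genes, 13.65 Mb). Its median was 0.58 in normoxia and 0.58 in hypoxia. In it, 44 of 53 genes were higher in sgXIST7, beside 51.3% of all genes. The 5 called genes (9.43%, beside 2.09% of all genes) were all higher in sgXIST7. This run too was chosen by these same fold changes, so the shares are a description. Against sgCtl the median was 0.43 in sgXIST7 and -0.20 in sgXIST9, so that the clones lay on opposite sides of the control. SPART, the spartin gene, had 81.1 CPM in sgXIST7 and 17.0 in sgXIST9 (2.25, adjusted p = 2.3e-07), and TSC22D1, a transcriptional regulator, had 434 and 216 (1.00, adjusted p = 5.1e-06), a call that was lost without sgXIST7 replicate 2 or sgXIST9 replicate 2, down to a log2 fold change of 0.90. The ends of this run moved with the window, and it broke into pieces. The longest piece had 31 genes (median 0.676) with a window of 21 genes. With a window of 81 genes it had 28 (median 0.371). The other runs were LOXL3 alone and 18 protocadherin genes from PCDHGA1 to PCDHGA12, whose median was 0.41 in normoxia and -0.21 in hypoxia. The protocadherins share exons, and against sgCtl their median was 0.35 in sgXIST7 replicate 2 but -0.39 and -0.36 in the others of that clone. Without that library the run was absent, and without sgXIST9 replicate 2 it was down to 2 genes.

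**Figure D4:**
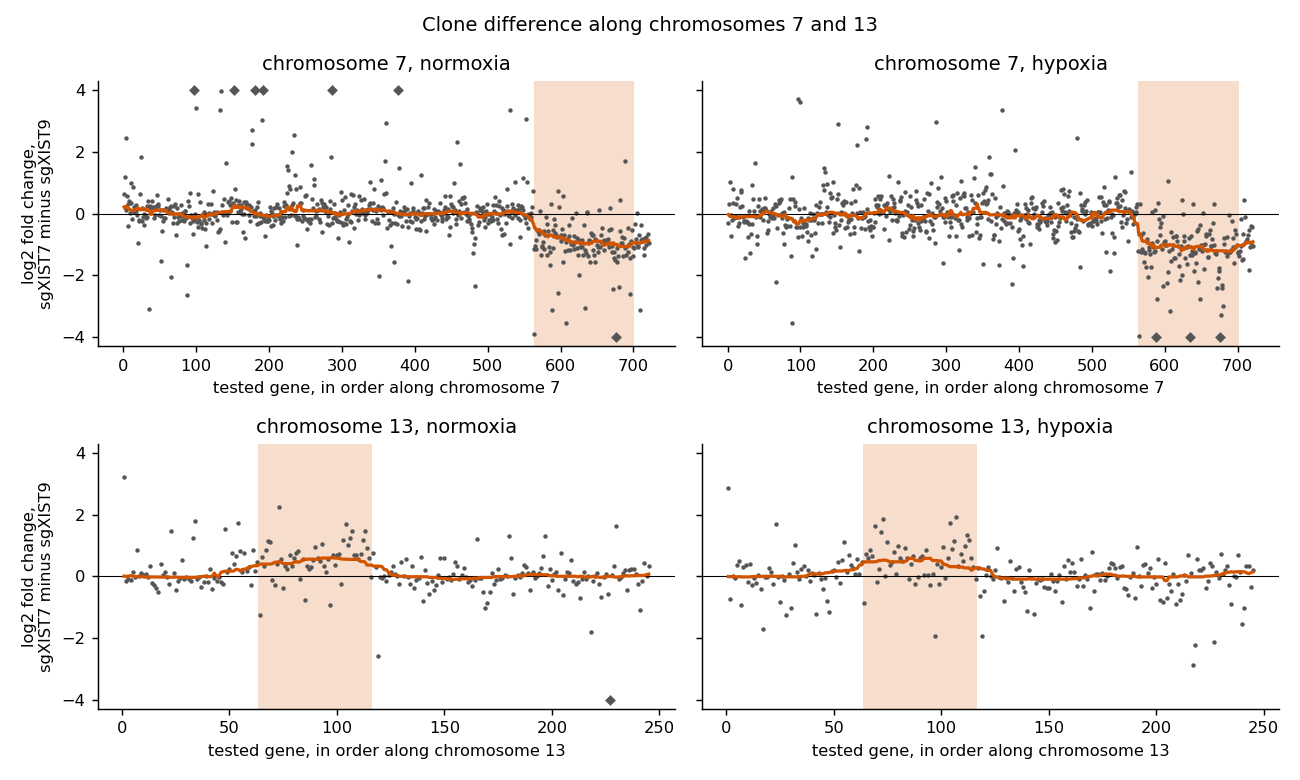
Log2 fold change of sgXIST7 minus sgXIST9 for each tested gene in its order along chromosome 7 (upper) and chromosome 13 (lower), in normoxia (left) and hypoxia (right). The line is the running median over 41 genes, shading marks the run found in normoxia, and diamonds are genes beyond 4 log2 units. On chromosome 7 the line steps from near 0 to a lower level and stays low to the end of the chromosome, in both conditions. The median of the run was -0.93 in normoxia and -1.12 in hypoxia.

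Smaller groups of neighbors differed by far more. On chromosome 3, 5 tested genes in a row were called higher in sgXIST9: IL1RAP, OSTN, OSTN-AS1, UTS2B and CCDC50 (chr3:190514085-191398659). UTS2B (urotensin 2B) had 36.8, 41.8 and 39.7 CPM in sgXIST9 and at most 0.333 in sgXIST7 (-7.55, adjusted p = 2.3e-10). CCDC50 had 738, 762 and 706 CPM in sgXIST9, 46.3, 36.7 and 38.8 in sgXIST7, and 46.3 to 48.8 in sgCtl (-4.18, SE 0.12, adjusted p = 3.9e-13). IL1RAP, an interleukin-1 co-receptor, was at -2.34 (adjusted p = 0.00021). Against sgCtl, all 5 genes were called higher in sgXIST9, and OSTN was also called higher in sgXIST7 (2.28, adjusted p = 0.0063), where it stayed below 1 CPM.
On chromosome 18, 4 genes in a row were called higher in sgXIST7: NEDD4L, ALPK2, LOC101927322 and MALT1 (chr18:58044226-58754477). MALT1, a paracaspase of NF-kB signaling, had 467, 380 and 424 CPM in sgXIST7, 31.9, 35.0 and 33.5 in sgXIST9, and 24.3 to 25.9 in sgCtl (3.66, SE 0.14, adjusted p = 2.3e-11). NEDD4L, a ubiquitin ligase, had 22.9 to 25.3 CPM in sgXIST7 and 9.75 to 13.2 in sgXIST9 (1.04, adjusted p = 5.2e-05), and without sgXIST7 replicate 2 or sgXIST9 replicate 3 its log2 fold change was 0.999 and 0.93, below the limit. The call of LOC101927322 (2.63, adjusted p = 0.0046) was lost when any library other than sgXIST9 replicate 2 was left out (adjusted p up to 0.042).
The promoter windows of these neighbors are shown because neighbors with unlike CG content were called in the same direction. Capitals mark CG dinucleotides, and positions are of GRCh38.p14. OSTN (chr3:191198991-191199290, plus strand) has 2 and UTS2B (chr3:191330477-191330776, minus strand) has 8. ALPK2 (chr18:58629042-58629341, minus strand) has 7, whereas its neighbor MALT1 (chr18:58671215-58671514, plus strand) has 33, and 81% of all windows hold as few as that. The sequences are from RefSeq.
OSTN promoter: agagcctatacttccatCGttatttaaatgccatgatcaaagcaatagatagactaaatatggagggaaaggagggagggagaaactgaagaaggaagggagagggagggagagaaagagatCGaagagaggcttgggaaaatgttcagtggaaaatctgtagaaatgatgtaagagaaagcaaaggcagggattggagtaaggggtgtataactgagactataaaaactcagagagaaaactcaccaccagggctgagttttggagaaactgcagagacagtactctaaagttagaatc
UTS2B promoter: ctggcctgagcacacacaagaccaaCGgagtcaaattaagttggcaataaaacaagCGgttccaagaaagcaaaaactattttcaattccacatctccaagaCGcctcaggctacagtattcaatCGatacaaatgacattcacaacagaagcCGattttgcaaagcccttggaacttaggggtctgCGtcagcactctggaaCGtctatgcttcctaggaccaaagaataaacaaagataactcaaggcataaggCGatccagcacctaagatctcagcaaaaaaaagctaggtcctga
ALPK2 promoter: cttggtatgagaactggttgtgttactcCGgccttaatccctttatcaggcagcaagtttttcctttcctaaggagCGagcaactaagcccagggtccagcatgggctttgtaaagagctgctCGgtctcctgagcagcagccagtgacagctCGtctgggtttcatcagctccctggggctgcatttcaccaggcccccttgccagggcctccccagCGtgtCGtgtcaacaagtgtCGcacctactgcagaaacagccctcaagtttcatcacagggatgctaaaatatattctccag
MALT1 promoter: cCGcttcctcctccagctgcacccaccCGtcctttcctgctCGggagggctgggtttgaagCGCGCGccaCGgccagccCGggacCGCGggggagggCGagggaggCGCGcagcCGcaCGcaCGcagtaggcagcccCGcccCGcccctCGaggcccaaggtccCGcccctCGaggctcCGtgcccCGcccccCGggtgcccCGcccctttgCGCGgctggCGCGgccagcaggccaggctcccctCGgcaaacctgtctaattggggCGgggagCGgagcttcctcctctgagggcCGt
Also on chromosome 3, SLITRK3, LINC01322 and BCHE were called higher in sgXIST9. SLITRK3, a synaptic adhesion protein, had 87.2, 85.1 and 85.6 CPM in sgXIST9 and 17.7, 15.7 and 15.3 in sgXIST7 (-2.40, adjusted p = 1e-08), and BCHE (butyrylcholinesterase) had 59.2, 58.4 and 64.3 against 9.46, 9.21 and 7.58 (-2.79, adjusted p = 0.00089). All 3 genes had 0 counts in the sgCtl libraries, and SLITRK3 and BCHE were called above sgCtl in both clones. The call of BCHE between the clones was lost with no filter on low counts (adjusted p = 0.015). On chromosome 11, ANO3, ANO3-AS1 and MUC15 were called higher in sgXIST9. MUC15, a membrane mucin, had 57.2, 52.9 and 60.5 CPM in sgXIST9 and 5.36, 3.55 and 5.14 in sgXIST7 (-3.59, adjusted p = 1.1e-06). MUC15 and ANO3-AS1 lie within ANO3 on the opposite strand, OSTN-AS1 within OSTN, and LOC101927322 over the start of MALT1. UTS2B and CCDC50 also overlap at their ends, on opposite strands. The strand setting of the counting is not given in the sources used here, so reads of these overlapping pairs may not be told apart. The call of ANO3-AS1 (-3.71, adjusted p = 0.005) was lost when any library other than sgXIST7 replicate 2 was left out (adjusted p up to 0.028).

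The clones were also compared in hypoxia, in libraries that share no sample with the normoxia comparison. Of the 508 genes called in normoxia, 286 (56.3%) were called the same way in hypoxia, where 666 genes (4.46%) were called in all (2.06% higher in sgXIST7 and 2.40% higher in sgXIST9), and edgeR called 0 the opposite way (2 at an unadjusted p under 0.05, 0 by DESeq2). The sign was the same for 484 of 508. Genes higher in sgXIST9 recurred in 137 of 196 cases (69.9%) and genes higher in sgXIST7 in 149 of 312 (47.8%). The median log2 fold change of the latter went from 2.29 in normoxia to 1.30 in hypoxia, and that of the former from -1.74 to -1.57. Both sets were chosen for a size above 1 in normoxia, which favors smaller medians in hypoxia. Whether a difference changed was tested with the interaction term.
The interaction was called for 25 of 14938 genes (0.167%), of which 13 were among the 508. Since the 508 were chosen for a wide difference in normoxia, a called interaction among them is mostly a narrowing by construction, and in 12 of the 13 the clones were closer in hypoxia. Of the 12 called interactions outside the 508, 6 had the opposite sign in hypoxia. In 10 of the 12 the difference was wider in hypoxia, which the lack of a call in normoxia favors. Among them were POU2F3 (0.96 in normoxia and 3.88 in hypoxia) and NMB (0.67 and 2.51). The 13 include SEMA3F, whose log2 fold change went from 1.96 in normoxia to 0.37 in hypoxia (interaction -1.59, SE 0.21, adjusted p = 0.0015), SFRP1, IGFBP2, WNT9A and S100A10. FSCN1 (fascin), an actin-bundling protein, went from -1.52 to 0.49, and STOM (stomatin) from -1.18 to 0.21. TSPAN1, a tetraspanin, was the one that widened, from 1.06 to 3.09, and its normoxia call was lost whichever of the 6 libraries was left out (adjusted p up to 0.034). The count of 13 was 3 without sgXIST9 replicate 1 of normoxia and 44 without sgXIST9 replicate 3 of hypoxia.

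**Figure D5:**
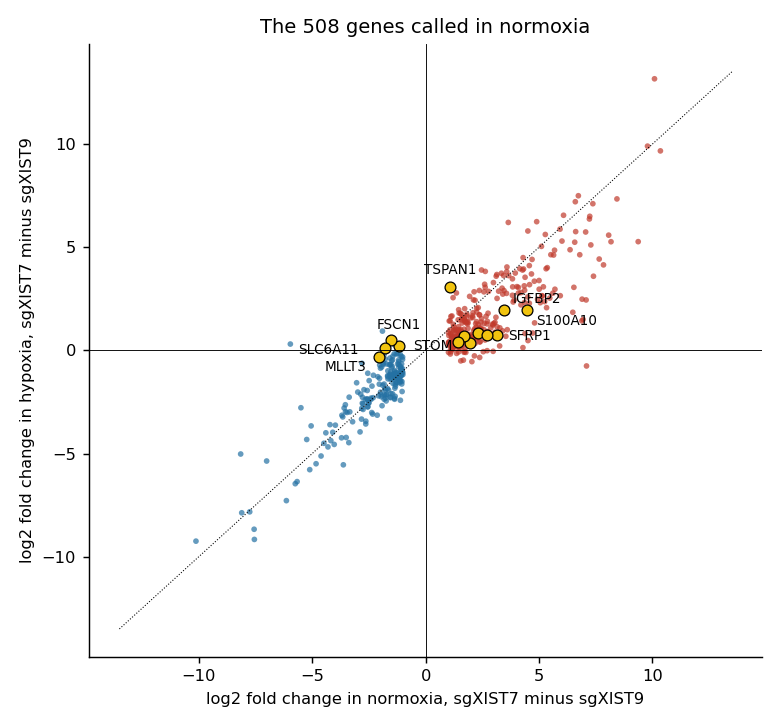
Log2 fold change of sgXIST7 minus sgXIST9 in normoxia (x axis) and in hypoxia (y axis) for the 508 genes called in normoxia, red where higher in sgXIST7 and blue where higher in sgXIST9. The dotted line marks equal values. Yellow points are the 13 genes with a called interaction, 12 of which lie nearer to 0 in hypoxia than in normoxia, as the choice of genes called in normoxia favors, whereas 484 of 508 genes keep their sign. The 12 called interactions outside the 508 are not plotted.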

How the data were processed

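RNA was measured by RNA-seq in OVCAR3-KRAB cells with sgCtl, sgXIST7 or sgXIST9, in normoxia and hypoxia, with 3 replicates of each. Per the labels and the study's methods, the authors made total RNA libraries after removal of ribosomal RNA, trimmed reads with Trimmomatic, checked them with FastQC, used HISAT2 for alignment to the hg38 build, and took gene counts from featureCounts. The strand setting of the counting and tool versions are not given in the sources used here. The deposited table holds raw counts per gene for 18 libraries. Of 28279 lines, 2 were broken and held 0 counts, which left 28277 genes.

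Genes were filtered with filterByExpr (minimum count 10, minimum total 15), scaled by TMM and fitted over all 6 groups with edgeR 4.0.16 (quasi-likelihood test, robust, limma 3.58.1, R 4.3.3), with a common dispersion of 0.0321 and 12 residual degrees of freedom. All 18 libraries entered the fit so that the groups shared 1 estimate of the spread. P-values were adjusted by Benjamini-Hochberg over all 14938 genes. CPM values are scaled by TMM. The sgXIST7 and sgXIST9 libraries, the members of the comparison, and the gene lists were chosen with earlier results of these data known. Genes named are the 12 widest calls in each direction with non-overlapping libraries and a mean count of at least 100, XIST locus genes and CSC markers, up to 6 called members of a list, genes detected in 1 clone only, genes on opposite sides of sgCtl and the ends of runs. Neighbors called in a row and other genes outside this rule, among them COL6A2, EPHA7, MAGED1, NAA10, HS6ST2, SPART, TSC22D1, NUP205, CUL1, TNPO3, CHCHD3, POU2F3 and NMB, were chosen after their values were seen. Of the entries of 39 lists, 1 was not found in the table and 1 was matched by an older symbol. Intervals of count ratios are exact at 95% and, like floors of 3 counts, cover counting error only. The alternatives were DESeq2 1.42.0, other scalings and filters, a fit of the compared groups alone, a replicate block, an adjusted p under 0.05, each library left out, and other windows and count limits. XIST as a share of sgCtl without each sgCtl library was added after the data were examined. The scripts were tested on simulated data. Summaries and figures were made with Python 3.11.15, pandas 2.3.3, numpy 2.4.6 and matplotlib 3.10.9.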

Additional observations from a re-analysis of the deposited data

Results flagged for a closer look

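For 25 of all genes (0.167%), 13 of them called between the clones in normoxia, the difference between the clones was itself different in hypoxia (interaction term, edgeR's quasi-likelihood test, adjusted p under 0.01 and a size above 1). Values are the clone difference in hypoxia minus that in normoxia, on the log2 scale. Among the 13, chosen for a wide difference in normoxia, a narrowing is favored by that choice. Among genes higher in sgXIST7, the difference shrank for S100A10 (-2.515), SFRP1 (-2.394), WNT9A (-1.969), SEMA3F (-1.592), IGFBP2 (-1.5), JDP2 (-1.465), ARG2 (-1.024) and CSRP2 (-1.009). JDP2 is an AP-1 repressor, ARG2 the mitochondrial arginase and CSRP2 a LIM protein of the actin cytoskeleton. TSPAN1 (2.033) was further apart in hypoxia. Among genes higher in sgXIST9, the difference shrank or crossed 0 for FSCN1 (2.014), SLC6A11 (1.896), a GABA transporter, MLLT3 (1.751), a subunit of the super elongation complex, and STOM (1.391). The other 12 were not called in normoxia, a choice that favors a widening, and 10 of them had a difference of larger size in hypoxia. These were POU2F3 (2.922), NMB (1.844), EPAS1 (1.689), CCDC34 (1.483), IER2 (1.175) and XK (1.108), which moved toward sgXIST7, and LOC153684 (-1.696), EFR3B (-1.426), CDKN2C (-1.424) and SLC22A5 (-1.182), which moved toward sgXIST9. The remaining 2, ASAP3 (-1.48) and ERRFI1 (1.259), had a smaller difference of opposite sign in hypoxia. In all, 6 of the 12 changed sign, so some of the larger differences were reversals. EPAS1 went from -0.781 in normoxia to 0.908 in hypoxia, and IER2 from -0.566 to 0.609.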

How the results depend on the processing

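Of 132 genes named by rule, 91 kept their direction and side of the threshold under all alternatives, and 41 did not in at least 1, mostly when a library was left out. Genes called higher in sgXIST7 numbered 221 to 273 and those higher in sgXIST9 148 to 170 over leave-one-out fits, beside 312 and 196 with all libraries, and the fit of XIST lay from -8.44 to -7.64. The interaction count of 13 was the least stable. It was 56 by DESeq2, 20 with no filter, 8 with the compared groups alone, 22 with a replicate block, 56 at an adjusted p under 0.05 and 3 to 44 over leave-one-out fits. The count of 12 genes on opposite sides of sgCtl was 20 with the compared groups alone, 28 at an adjusted p under 0.05 and 7 to 11 over leave-one-out fits. The 22 genes detected in 1 clone only became 10 with a limit of 1 count and 69 with a minimum of 10 counts where detected. The 4 runs of neighbors became 23 with a window of 21 genes, 2 among genes with a mean CPM of at least 5 and 2 to 6 over leave-one-out fits, and a chromosome 7 run was found in all of these. The median over its 138 genes was -0.96 to -0.90 in leave-one-out fits. CD24 lay between -0.36 and 0.731 over leave-one-out fits and reversed without sgXIST7 replicate 1 (-0.181), sgXIST7 replicate 2 (-0.36) or sgXIST9 replicate 3 (-0.039), and ALDH1A3 lay between -0.325 and 0.609, reversed without sgXIST7 replicate 1, both near 0 counts. Except where the number of samples or genes was changed by construction, the cause was not tested. Replicate numbers did not pair the samples in normoxia (correlations of same-numbered deviations 0.022, 0.054 and 0.034). In hypoxia these were 0.294, -0.068 and 0.492, with -0.566 to 0.474 between unlike numbers. The largest was that of replicate 3, whose correlations with unlike numbers were -0.566 to 0.038. Replicate 3 of the clones thus shared a deviation in hypoxia, and its cause was not tested. Without replicate 3 of both clones in hypoxia, 265 normoxia calls recurred there, beside 286 with all libraries. With a replicate block, 346 and 216 genes were called, with 499 of the 508 calls kept.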

Other observations

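Of 17 neuronal adhesion genes, 2 were called in each direction (23.5%, beside 3.40% of all genes), and 2 of the 4 calls recurred in hypoxia. Of 22 Polycomb and DNA methylation genes, 2 were called (9.09%, beside 3.40% of all genes), both higher in sgXIST9. They were EZH2 of the chromosome 7 stretch and BMI1, which is also in the stem cell list. The call of BMI1 was lost whichever of the 6 libraries was left out. ABC transporters had 1 call in each direction of 29 tested (6.9%), with a median log2 fold change of 0.04. Of 25 genes of the ATF4 stress response, 2 (8.0%) were called higher in sgXIST7, and the median was 0.15 in normoxia and 0.70 in hypoxia. In 14 aldehyde dehydrogenases, edgeR called 0 (3 at an unadjusted p under 0.05, 0 called by DESeq2). The summed level of RNA polymerase III transcripts was 93200 to 154000 CPM in sgXIST7 and 142000 to 147000 in sgXIST9.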
